A study of Saccharomyces cerevisiae with 2 samples.

Results

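DNase I hypersensitive sites (DHS) in which no footprint was called were examined in the budding yeast Saccharomyces cerevisiae. A DHS is a stretch of chromatin that DNase I cuts readily, and a footprint is a short stretch inside it that is cut less than its surroundings. The regions were chosen by the deposited footprint calls: a DHS was taken as footprint-free when no footprint of the same strain had its midpoint inside it. By this rule 149 of 3155 DHS in the wild-type (WT) strain and 185 of 2875 DHS in the strain with the Hsp90 allele G170D were footprint-free, 334 of 6030 in all. No footprint reached into any of them by even 1 bp. Every footprint lay in another DHS of its strain, at least 186 bp (WT) or 211 bp (G170D) away. Counting by overlap could therefore pick no other regions and is no separate check. The absence of footprints is fixed by that choice, and the shares of DHS without them are given as description.

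DNase I reaches DNA mainly where nucleosomes are displaced, and in yeast such openings are known around promoters, replication origins, tRNA genes and telomeric elements. A transcription factor or other protein bound within an opening can shield its site, and a footprint caller looks for such local dips in cutting. A caller needs cuts on both sides of a dip, so a DHS without a called footprint is not by itself a DHS without bound protein. Hsp90 is an abundant chaperone that matures many regulatory proteins.

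Both strains were BY4741, a laboratory strain, kept for 6 h at 37 °C in YPD, a rich medium. The WT culture started at an OD of 0.25 and the culture with the temperature-sensitive Hsp90 allele G170D at 0.37, and both were taken at 0.65 to 0.7, so that growth and genotype cannot be told apart. The labels do not say which Hsp90 gene carries the allele. There was 1 library per strain, no replicate error could be had and no test between strains was made. Intervals are 95% intervals that cover counting error and treat regions as independent. Read depth is unknown. The lists held 45019 footprints in WT and 33585 in G170D, with a median length of 11 and 12 bp, and all of them lay inside a DHS of their strain. Positions are given on sacCer3, counted from 1.

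Footprint-free DHS were short and weak. Their median width was 73 bp in both strains, against 423 bp (WT) and 478.5 bp (G170D) for DHS that held a footprint. They spanned 13 to 1365 bp in WT and 11 to 1258 bp in G170D, with quartiles of 44 and 111 bp and of 46 and 107 bp. DHS of at most 150 bp made up 87.9% of the footprint-free DHS in WT and 88.1% in G170D. In length they came to 0.633% (13.8 kb) of all WT DHS and 0.957% (17.3 kb) of all G170D DHS. Among all DHS the footprint-free share was 4.72% for WT (4.01 to 5.52) and 6.43% for G170D (5.57 to 7.39), and among DHS of at most 150 bp 30.8% (26.4 to 35.4) and 38.4% (33.7 to 43.2).

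The share fell steeply with width. Of DHS up to 50 bp wide, 49 of 59 in WT and 49 of 63 in G170D held no footprint. Between 51 and 100 bp the share was 37.8% in WT (30.0 to 46.2) and 47.5% in G170D (40.0 to 55.1), and between 101 and 150 bp it was 11.9% (7.90 to 16.9) and 15.8% (10.9 to 22.0). The narrowest DHS with a footprint measured 36 bp in WT and 39 bp in G170D, and the smallest footprints measured 6 bp. Over 300 bp, 2 of 1847 WT DHS and 1 of 1714 G170D DHS were footprint-free.

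**Figure D1:**
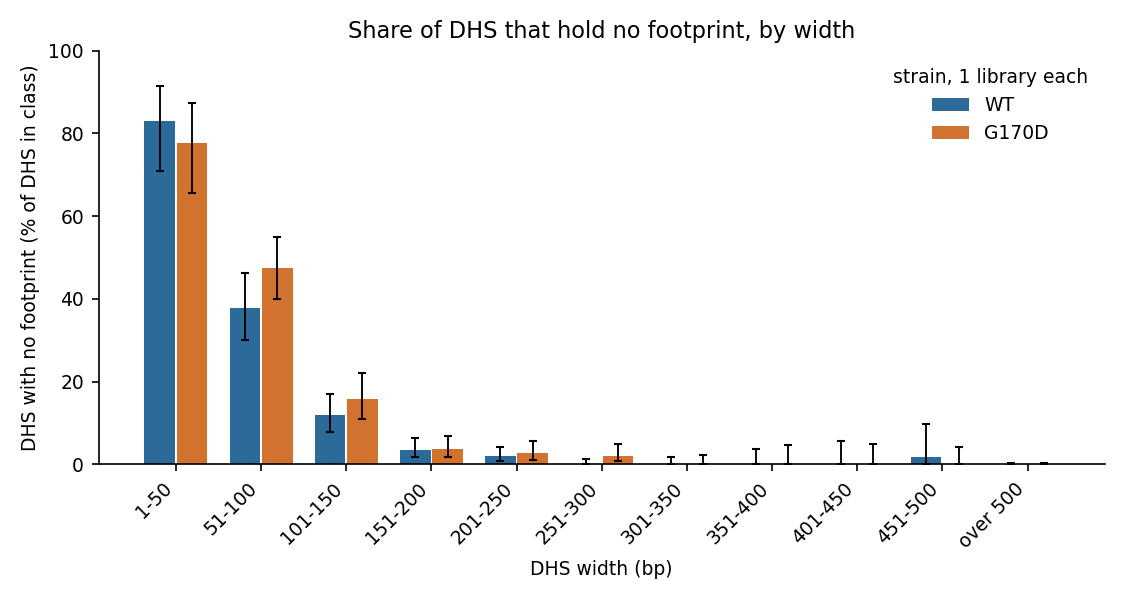
Share of DHS that held no footprint (percent of the DHS in each width class) against DHS width in bp, for WT and G170D with 1 library each. Bars start at 0 and error bars are exact 95% binomial intervals. The share was 83.1% (WT) and 77.8% (G170D) up to 50 bp and under 4% in every class from 151 bp up in both strains.

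Each DHS carries a deposited score, which is the authors' own value and was used here to rank DHS within a list. The median score of footprint-free DHS was 3.82 in WT and 3.87 in G170D, close to the lowest scores in the lists, against 9.74 and 9.01 for DHS with a footprint. Of the footprint-free DHS, 140 of 149 in WT and 165 of 185 in G170D lay in the lowest quartile of their list. DHS with exactly 1 footprint, just outside the rule, numbered 192 in WT and 227 in G170D. Their median width was 120.5 and 122 bp and their median score 4.20 and 4.11. When each footprint-free DHS was set against DHS with a footprint in the same 10 bp class of width, its score was 0.948 times the median of that class in WT (0.929 to 0.980, median over 131 DHS) and 0.977 times in G170D (0.959 to 1.00, 169 DHS). At equal width the scores of DHS with and without footprints were close, and slightly lower without them in WT. In G170D the interval just included 1. It left out 1 with classes of 25 bp (0.973, 0.953 to 0.990) and with the stronger 75% of footprints (0.975, 0.959 to 0.998). Under the other alternatives it included 1. Scores and footprints come from the same reads and are not independent.

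**Figure D2:**
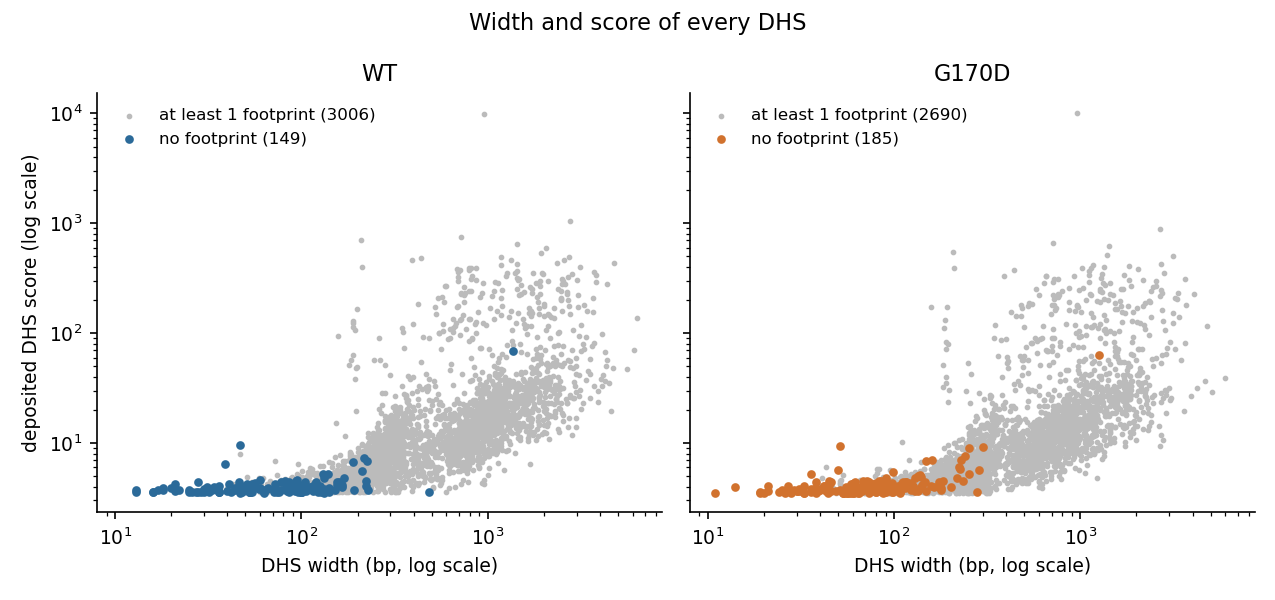
Deposited DHS score against DHS width in bp, both on log scales, for every DHS of WT (left) and G170D (right). Each point is 1 DHS, coloured where it held no footprint (149 in WT, 185 in G170D) and grey where it held at least 1. The coloured points lie at the low, narrow end, apart from 1 point per strain at 1365 and 1258 bp.

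The exception in both strains was a strong, wide DHS at the right end of chromosome IX. It spanned 438515 to 439879 in WT, with a score of 68.6 at place 217 of the list, and 438611 to 439868 in G170D, with a score of 63.0 at place 202. It lay past the last annotated coding gene of that arm, YIR042C, by 2531 bp in WT, and no coding or RNA gene of the table used here overlaps it. All other DHS over 1000 bp held at least 8 footprints in either strain, with medians of 31 in WT and 29 in G170D. No gene of the table and no other DHS lay further out on that arm. Within 10 kb of the outermost gene or DHS of a chromosome, 47 further WT DHS over 300 bp held 13.0 to 39.7 footprints per kb, and 43 such G170D DHS held 10.1 to 37.7. These could lie up to 10 kb further in, and how they compare with an outermost DHS was not tested.

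Next by score in both strains came a DHS of 47 bp in WT (199485 to 199531 on chromosome III) and 51 bp in G170D (199483 to 199533). It lay inside BUD5, which encodes an exchange factor of bud site selection. In the gene table used here it was 14 bp (WT) from the end of the mating-type gene MATALPHA2. Which mating-type gene these cells carry there was not examined. The scores of this DHS, 9.63 and 9.40, stood at places 1523 and 1296, near the middle of each list despite the small width.

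Of the next 4 by score in WT, 3 lay inside coding regions. They were found in ECM27 (X, 626165 to 626380, score 7.24), in PHO2, which encodes a homeodomain factor of phosphate genes (IV, 270419 to 270643, score 6.82), and in YPQ1, which encodes a vacuolar amino acid transporter (XV, 144866 to 145054, score 6.70). The other, of 39 bp, lay between IMA3 and CSS1 on chromosome IX (21494 to 21532, score 6.42). In G170D neither ECM27, PHO2 nor the IMA3 to CSS1 region had a DHS at that place. The YPQ1 region was covered in G170D by a DHS of 252 bp with 5 footprints, 4 of them within the WT stretch.

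In G170D the next 4 lay in or at the end of genes. These were the end of TED1, which acts in remodelling of lipid anchors (IX, 279696 to 279995, score 9.22), the inside of KAR3, a minus-end kinesin gene (XVI, 816236 to 816487, score 8.97), and the end of HYM1, a gene of the RAM signalling network (XI, 85740 to 85980, score 7.69). The fourth lay inside HIR2, a subunit gene of a histone chaperone (XV, 403092 to 403321, score 7.06). WT had no DHS at the KAR3 place. At TED1 the WT DHS was 718 bp wide with a score of 9.43 and 13 footprints, of which 5 lay within the 300 bp that were footprint-free in G170D. At HYM1 the WT DHS was 626 bp wide and held 6 footprints, 3 of them in the G170D stretch.

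The widest of the others showed the same range of states. In WT a DHS of 482 bp in TRE2 (XV, 809986 to 810467) had a score of 3.56, and its G170D counterpart of 976 bp had a score of 10.1 and 13 footprints, 7 of them in the WT stretch. A WT DHS of 228 bp in YEL025C (V, 105551 to 105778) had no counterpart. In G170D a DHS of 287 bp lay over the start of VTC4, the polyphosphate synthase gene (X, 413239 to 413525), where the WT DHS of 504 bp held 5 footprints, 3 in the stretch. Another of 279 bp (XII, 1028148 to 1028426) lay between the diverging genes VMA6, for a vacuolar ATPase subunit, and RPL6B, for a ribosomal protein. The WT DHS there was 902 bp wide and held 7 footprints, none of them in the G170D stretch.

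Many footprint-free DHS were absent from the other strain's list, at rates near those of other narrow DHS. In WT 101 of 149 overlapped no G170D DHS, which is 67.8% (59.6 to 75.2) against 28.3% of all WT DHS. In G170D 84 of 185 overlapped no WT DHS, or 45.4% (38.1 to 52.9) against 17.7% of all G170D DHS. Narrow DHS with footprints were absent about as often. For DHS with footprints, weighted to the widths of the footprint-free ones in classes of 10 bp, the share without a counterpart was 74.0% ± 5.83 (counting SE) in WT and 46.1% ± 4.84 in G170D. Over the same 131 WT and 169 G170D footprint-free DHS it was 64.1% (55.3 to 72.3) and 43.2% (35.6 to 51.0). The share with a counterpart thus differed from that of DHS with footprints by 9.86 percentage points in WT (-4.22 to 23.9) and 2.91 in G170D (-9.16 to 15.0), and both intervals include 0. Comparison DHS of equal width were lacking for 18 WT and 16 G170D regions, most of them very narrow.

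Where a counterpart existed, it usually held footprints, and so did those of other DHS of that width. Of the 48 WT regions with a G170D counterpart, 39 met a DHS with at least 1 footprint (81.2%, 67.4 to 91.1) and 9 met a footprint-free one. Of the 101 G170D regions with a WT counterpart, 92 met a DHS with footprints (91.1%, 83.8 to 95.8) and 9 a footprint-free one. Over all DHS with a counterpart the share that met footprints was 96.4% in WT and 98.2% in G170D. In classes of equal width it was 78.6% (33 of 42) against 77.7% ± 9.86 (counting SE) of DHS with footprints in WT, a difference of 0.882 points (-22.1 to 23.9). In G170D it was 92.7% (89 of 96) against 93.5% ± 3.22, a difference of -0.768 (-8.95 to 7.42). The counterparts were wider, with a median of 235.5 bp in G170D against 75 bp for the WT regions, and of 227 bp in WT against 80 bp for the G170D regions. Between 50 and 150 bp these medians were 214 bp against 84 bp for WT and 214.5 bp against 80 bp for G170D regions. DHS with footprints of that range also met wider counterparts, at 162 bp against 122 bp for WT and 251 bp against 116 bp for G170D. In G170D 84 of the 101 regions lay wholly inside the WT counterpart, and in 20 of the 101 the same WT DHS also met another G170D DHS. In WT 31 of 48 lay wholly inside the counterpart, and in 6 of 48 the counterpart also met another WT DHS. Set against DHS with footprints of equal width, wholly inside lay 82.3% of footprint-free DHS in G170D against 76.6% ± 5.53, a difference of 5.74 points (-7.52 to 19.0), and 61.9% in WT against 50.6% ± 11.8, a difference of 11.3 (-16.1 to 38.8). The counterpart met another DHS in 20.8% against 18.9% ± 5.11 in G170D and 11.9% against 10.9% ± 7.37 in WT, and the intervals of all 4 differences include 0.

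**Figure D3:**
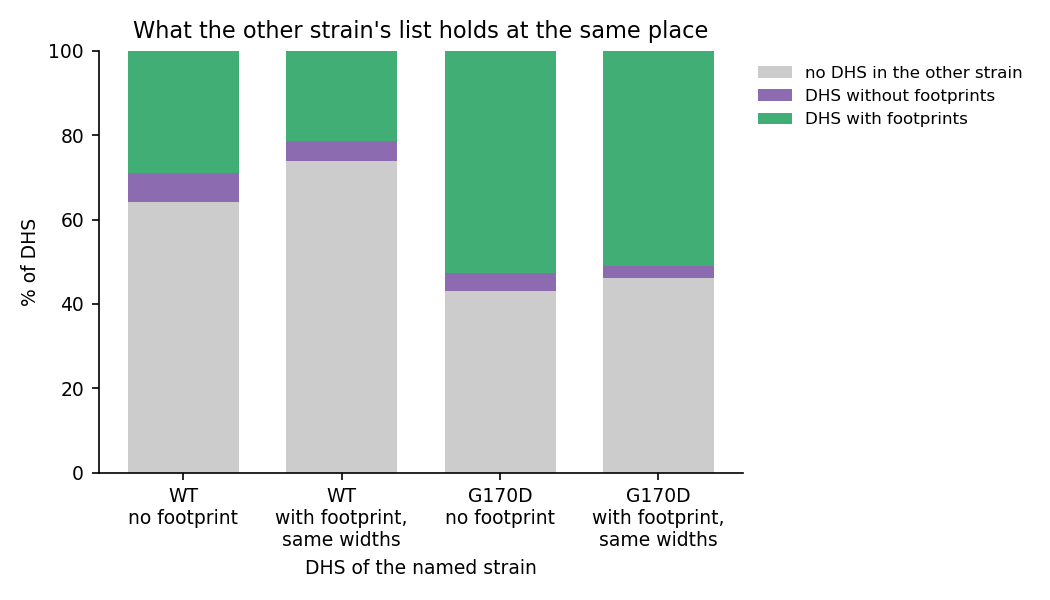
Share of DHS (percent, stacked to 100) by what the other strain's list held at the same place, for footprint-free DHS that had comparison DHS of equal width (131 in WT, 169 in G170D) and for DHS with footprints weighted to those widths. The grey part, no DHS in the other strain, was 64.1% and 74.0% in WT and 43.2% and 46.1% in G170D.

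The other strain's footprints inside the shared stretch were not used by the rule. Among G170D DHS with a WT counterpart, stretches that were footprint-free held a WT footprint less often than DHS of the same width that did have footprints. A WT footprint midpoint lay in 72 of the 101 stretches. Of the 96 with comparison DHS of equal width, 69 held one (71.9%, 61.8 to 80.6), against 91.5% ± 3.64 (counting SE) of the comparison DHS, a difference of -19.6 percentage points (-31.1 to -8.15). With the stronger 75% of footprints alone the difference was -10.5 and its interval reached 0 (-21.2 to 0.119). The interval also included 0 for widths of 150 to 300 bp (-21.2, -42.6 to 0.237, 16 regions). So did that for the upper 75% of DHS by score (-16.0, -45.9 to 13.8, 6 regions). Under the other alternatives it left out 0. Counted over all G170D DHS, with or without a counterpart, the shares were 40.8% and 49.9% ± 4.86, and the difference of -9.12 points had an interval of -21.2 to 2.95, which includes 0. Per length, the stretches held 12.8 WT footprints per kb (10.7 to 15.2). Between 50 and 150 bp they held 15.4 per kb (12.2 to 19.2), and G170D DHS with footprints of that range held 21.5 (19.0 to 24.1).

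In the opposite direction the comparison was too coarse to separate the groups. A G170D footprint lay in 30 of the 48 shared stretches that were footprint-free in WT. Of the 42 with comparison DHS of equal width 64.3% held one (48.0 to 78.4), against 48.4% ± 11.8 of the comparison DHS, and the difference of 15.9 points had an interval of -11.4 to 43.3. Its sign was negative with lists of the same number (-9.21) and with the stronger 75% of footprints alone (-4.35). So it was for widths of 150 to 300 bp (-18.0, 6 regions) and for the upper 75% of DHS by score (-64.3, 3 regions). Between 50 and 150 bp it was 0.216, and under the other alternatives it stayed positive. Per length, these stretches held 9.33 G170D footprints per kb (6.88 to 12.4). Between 50 and 150 bp the values were 10.9 (6.81 to 16.4), and 13.7 (11.3 to 16.4) for WT DHS with footprints.

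In G170D the regions whose counterparts held the most footprints lay toward one edge of much wider WT DHS. Wider DHS held more footprints, so this choice by itself favours wide counterparts. The first was a DHS of 49 bp on chromosome XVI (603713 to 603761), upstream of AGC1, a mitochondrial amino acid carrier gene. Its WT counterpart spanned 2259 bp and held 50 footprints, 1 of them in the G170D stretch. A DHS of 41 bp upstream of RPL26A, a ribosomal protein gene (XII, 818930 to 818970), shared 14 bp with a WT DHS of 1506 bp, a score of 227 and 44 footprints, none in the stretch. A DHS of 58 bp between POC4, a proteasome assembly gene, and RPL33A (XVI, 280966 to 281023) met a WT DHS of 2498 bp with 42 footprints, again none in the stretch. In the histone demethylase gene JHD2 (X, 645125 to 645181) and upstream of the ergosterol gene ERG28 (V, 238024 to 238108), DHS of 57 and 85 bp met WT DHS of 2344 and 2008 bp. These held 41 and 39 footprints, 1 and 2 of them in the stretch. In all 5 cases the WT DHS also met another G170D DHS, which lay 168 to 573 bp from the footprint-free one.

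The 5 WT regions of this kind met G170D counterparts of 764 to 1516 bp. They were picked from 48 WT regions with a counterpart, and those of G170D from 101. The widths in the 2 sets follow from that choice and were not compared. A DHS of 30 bp between PRP3, a splicing factor gene, and JIP4 (IV, 1407344 to 1407373) met a G170D DHS of 1516 bp with 18 footprints, none in the stretch. In MCK1, a protein kinase gene (XIV, 56542 to 56615), a DHS of 74 bp met one of 777 bp with 15 footprints, 2 in the stretch. The TRE2 region described above came next. In CCM1, a gene of mitochondrial ribosomal RNA stability (VII, 792531 to 792577), 47 bp met a DHS of 812 bp with 12 footprints, 2 in the stretch. Just inside the start of POS5, the mitochondrial NADH kinase gene (XVI, 191410 to 191549), 140 bp met a DHS of 764 bp with 11 footprints, 1 in the stretch. In 2 of these 5, PRP3 to JIP4 and CCM1, the G170D DHS also met another WT DHS.

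**Figure D4:**
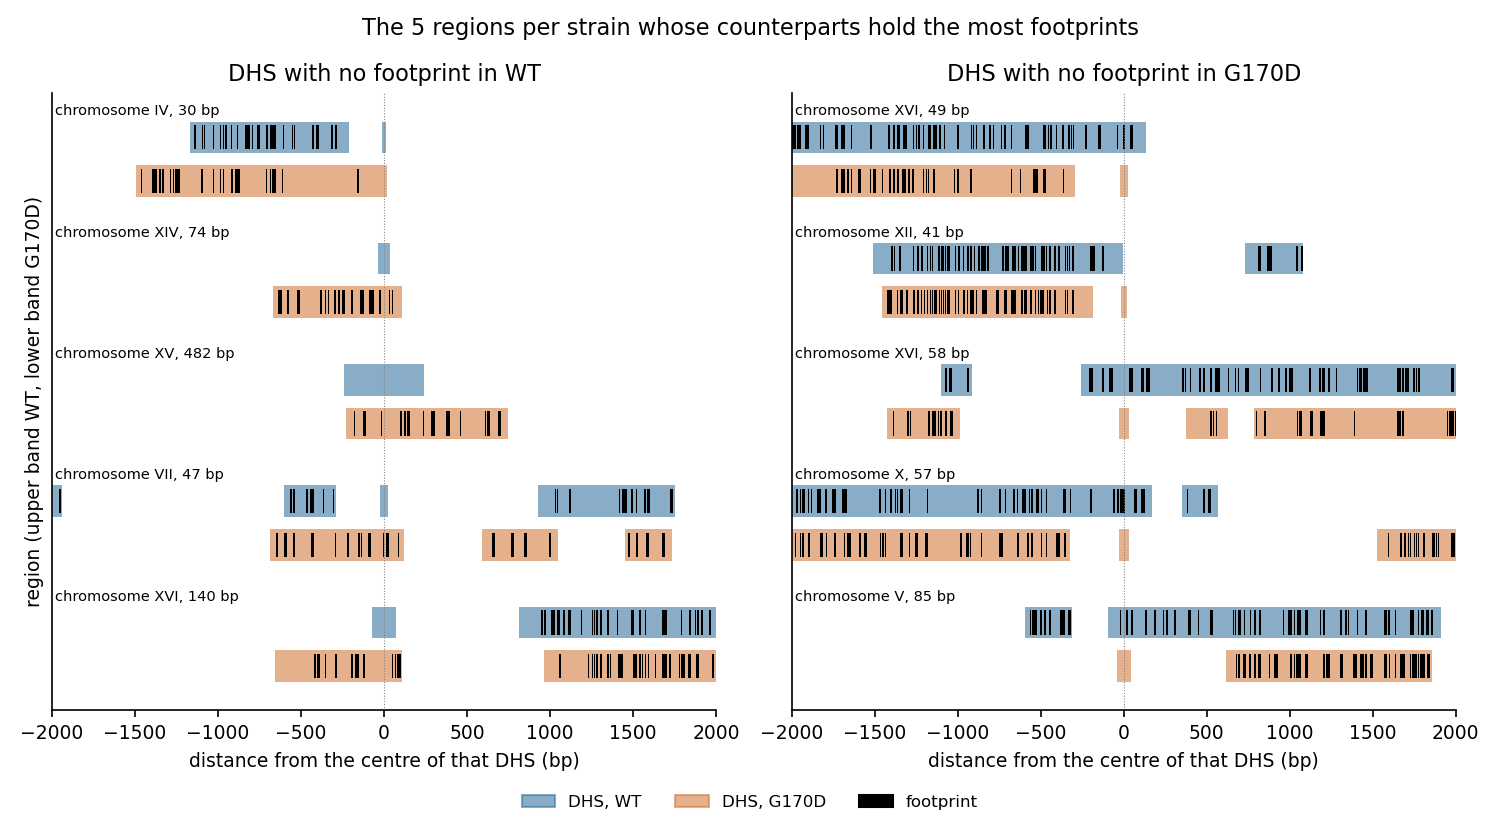
The 5 footprint-free DHS of WT (left) and of G170D (right) whose counterparts held the most footprints, each centred at 0, with distance in bp on the horizontal axis, which ends at 2000 bp on either side. In each row the upper band shows WT and the lower band G170D, coloured bars are DHS and black marks are footprints. The centred DHS of the named strain has no black mark, and the other strain's DHS at that place runs out to 764 to 2498 bp in total width.

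Overlapping DHS that were footprint-free in both strains numbered 9. After the chromosome IX end and BUD5, the strongest pair lay in HIR2 on chromosome XV. It measured 210 bp in WT (score 5.57) and 230 bp in G170D (score 7.06), and 165 bp were shared. A DHS of 94 bp in WT (score 4.51) and 99 bp in G170D (score 5.44) lay between the converging genes ECM13 and FUI1, the latter a uridine permease gene, and started at 137813 of chromosome II in both lists. A pair 35 bp past the end of MCO6 on chromosome X measured 132 and 73 bp, with scores of 4.83 and 3.80. The one near the end of DUG1, a glutathione breakdown gene on chromosome VI, measured 55 and 38 bp, with scores of 4.03 and 4.42. The weakest pairs, with scores of 3.49 to 3.81, lay upstream of PDH1, in RPB2, which encodes a subunit of RNA polymerase II, and in the squalene synthase gene ERG9.

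Footprint-free DHS of WT lay wholly inside coding regions more often than other WT DHS of their width. A count by midpoint separated them between 50 and 150 bp but not in 10 bp classes of width. Wholly within a coding region were 98 of 149 in WT (65.8%, 57.6 to 73.3) and 80 of 185 in G170D (43.2%, 36 to 50.7), against 26.7% and 25% of all DHS with footprints. In WT the share was 65.6% over the 131 regions with comparison DHS and 49.6% ± 6.65 (counting SE) for DHS with footprints of the same widths. The difference of 16.0 percentage points had an interval of 0.686 to 31.4, and under the alternatives tried it ran from 14.9 to 55.3, the latter on 8 regions. By midpoint the WT shares in coding regions were 68.7% and 61.4% ± 6.47, a difference of 7.26 points (-7.70 to 22.2). In G170D the shares were 42.6% and 44.9% ± 4.83, a difference of -2.29 points (-14.3 to 9.77). The difference between the strains was not tested. By midpoint, the other WT regions lay between tandem genes (23, 15.4%), diverging genes (13, 8.72%) and converging genes (9, 6.04%). Of all WT DHS these positions held 26.1%, 11.6% and 11.7%. Those of G170D lay between tandem (45, 24.3%), diverging (24, 13.0%) and converging genes (15, 8.11%), against 28.0%, 13.0% and 13.1% of all G170D DHS. In each strain 1 region lay past the last gene of an arm.

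**Figure D5:**
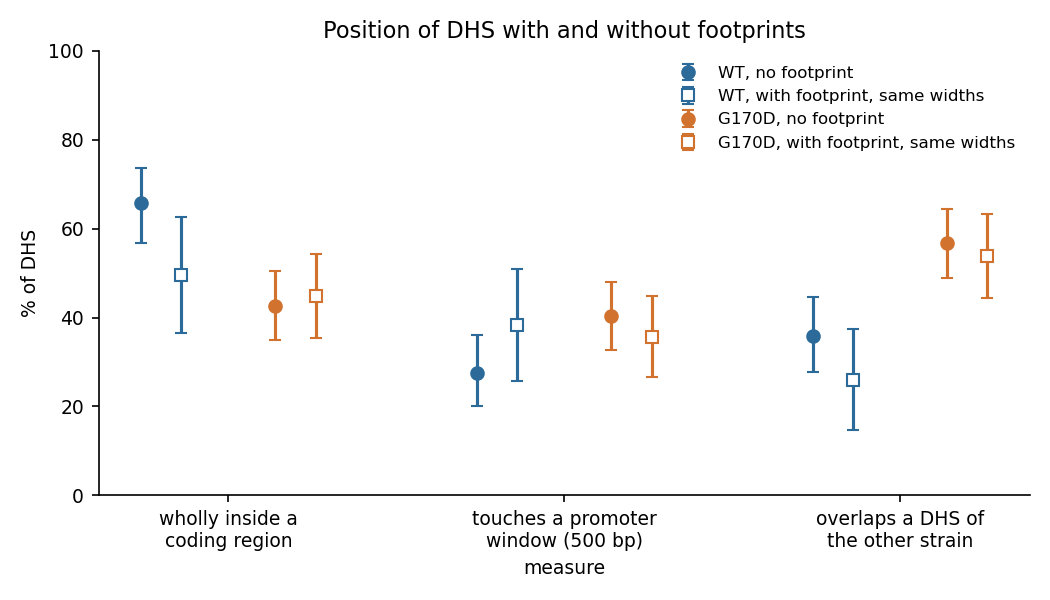
Percent of DHS wholly inside a coding region, touching a promoter window and overlapping a DHS of the other strain, for footprint-free DHS (filled circles) and DHS with footprints weighted to the same widths (open squares). Error bars are exact 95% binomial intervals for the circles and approximate 95% intervals from counting SE for the squares. In WT the coding share was 65.6% against 49.6%, and in G170D 42.6% against 44.9%.

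The promoter windows were the 500 bp before the coding starts of 6002 nuclear genes. A footprint-free DHS touched such a window in 39 of 149 cases in WT (26.2%, 19.3 to 34.0) and 73 of 185 in G170D (39.5%, 32.4 to 46.9). Of all DHS, 49.5% in WT and 49.1% in G170D did so. Among regions with comparison DHS of equal width the shares were 27.5% against 38.3% in WT and 40.2% against 35.6% in G170D. At equal width the difference from DHS with footprints was -10.8 percentage points in WT (-25.6 to 4) and 4.59 in G170D (-7.15 to 16.3), and both intervals include 0. In WT the interval left out 0 under 6 of the alternatives. These were classes of 25 bp (-16.5, interval -28.8 to -4.29), windows of 1000 bp (-17.7, -32.9 to -2.54), the stronger 75% of footprints (-10.2, -18.7 to -1.71), widths of 50 to 150 bp (-12.3, -23.4 to -1.26), widths of 150 to 300 bp (-21.6, -41.6 to -1.65) and the upper 75% of DHS by score (-38.0, -67.7 to -8.16). The windows of 47 genes were touched in WT, or 2.47% of the windows with any WT DHS, and those of 86 genes in G170D, or 4.85% of the windows with any G170D DHS. For 35 of the WT genes and 73 of the G170D genes the footprint-free DHS was all that the window held. Among those 35 WT windows, G170D had a DHS with footprints in 11, a footprint-free one in 3 and none in 21. Among the 73 G170D windows, WT had a DHS with footprints in 39, a footprint-free one in 3 and none in 31. Of the 423 genes with a promoter DHS in WT but not in G170D, 21 rested on footprint-free DHS (4.96%, 3.10 to 7.49), and of the 299 genes in the opposite case, 31 did (10.4%, 7.15 to 14.4). Over all windows with a DHS of the strain, 1.84% in WT and 4.11% in G170D rested on footprint-free DHS, and over the 1476 windows with a DHS in both strains 0.949% and 2.85%. These window shares were not matched for DHS width. At equal width, 64.1% of footprint-free WT DHS and 74.0% of those with footprints had no counterpart, and 43.2% and 46.1% in G170D. The 47 and 86 genes were reached by 39 and 73 DHS, and the intervals do not allow for such sharing.

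Genes for cytosolic ribosomal proteins, the longest protein-coding list with 137 members, were reached at window shares whose intervals include those of all genes. A footprint-free DHS touched the promoter window of 2 of 73 with any DHS in WT (2.74%, against 2.47% of all genes) and of 5 of 59 in G170D (8.47%, 2.81 to 18.7, against 4.85%). Of gene bodies with any DHS, 1 of 99 in WT (1.01%, against 4.01% of all genes) and 4 of 82 in G170D (4.88%, against 4.69%) met one. The G170D genes were RPL25, RPL26A, RPS1B, RPP2B and RPL6B, and those of WT were RPL3 and RPS1B. At RPS1B, which encodes a protein of the small subunit, the WT region of 30 bp (XIII, 146098 to 146127) and the G170D region of 107 bp (146419 to 146525) were different stretches, and each met a DHS with footprints in the other strain. Within the gene, a G170D DHS of 147 bp in RPS13 (score 4.46) met a WT DHS of 258 bp with 2 footprints, both in the stretch. One of 124 bp in RPL15A (score 4.28) met a WT DHS of 1012 bp with 18, of which 2 lay in the stretch. A WT DHS of 151 bp in RPL16A (score 3.76) had no counterpart.

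Chaperone lists held too few DHS to be set apart from all genes. Of the 23 heat shock chaperone genes, 12 windows in WT and 11 in G170D held a DHS, and none of these DHS was footprint-free, against 2.47% and 4.85% of all such windows. These counts of 0 allow up to 26.5% and 28.5% by the exact binomial interval. A G170D DHS of 112 bp inside SSA3, an inducible Hsp70 gene (score 4.37), was the single one within a gene body of the list and had no WT counterpart. Of the 14 genes of Hsp90 and its cochaperones, 6 windows in WT and 5 in G170D held a DHS, and neither a window nor a gene body met a footprint-free one.

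Other lists gave at most 1 region per strain. In WT these were a DHS of 18 bp upstream of the remodeller gene ISW1, one of 94 bp upstream of PAU8, a subtelomeric gene on chromosome I, and one of 21 bp in AGA1, a cell adhesion gene of mating. In G170D they were DHS of 20 bp in RPN4, which encodes the transcription factor of proteasome genes, and of 50 bp upstream of PAU15. The PAU15 region (score 5.72) met a WT DHS of 145 bp with 2 footprints, both outside the stretch, and the other 4 had no counterpart. Of windows with a WT DHS, 1 of 12 remodeller windows (8.33%, 0.211 to 38.5) and 1 of 21 subtelomeric ones (4.76%) were met, against 2.47% of all. Of mating gene bodies with a WT DHS, 1 of 16 was met (6.25%, against 4.01%). In G170D it was 1 of 16 subtelomeric windows (6.25%, against 4.85%) and 1 of 11 proteasome gene bodies (9.09%, against 4.69%). Histone and glycolysis genes, and the general regulatory factors, met none in window or body in either strain. No window of the regulatory factors held any WT DHS. With so few DHS in most lists, counts of 0 set only wide limits, up to 45.9% for the 6 histone windows with a WT DHS.

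Footprint-free DHS met few RNA genes. A tRNA gene was touched by 200 of all WT DHS (6.34%) and 189 of all G170D DHS (6.57%) but by 0 of 149 and 0 of 185 footprint-free ones. A count of 0 allows shares of up to 2.01% and 1.62% when taken as fewer than 3 counts, and of up to 2.45% and 1.97% by the exact binomial interval. Among narrow DHS with footprints tRNA genes were also rare, at 0.191% in WT and 0.115% in G170D when weighted to the same widths, so this absence was not distinguishable from that of narrow DHS in general. Of the 82 snoRNA and snRNA genes, 46 met a DHS in WT and 31 in G170D. Of this list a footprint-free DHS met SNR191 alone, with 14 bp in G170D (1 of 31, 3.23%, against 4.69% of gene bodies), and none in WT. Counting every RNA gene other than tRNA genes, 1 footprint-free DHS in WT and 2 in G170D touched one.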

How the data were processed

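DNase I cleavage was sequenced for 101 cycles from 1 library per strain. Bowtie 0.12.8, FastQC and the build sacCer3 are named in the submitters' processing notes. No source used here gives the DHS caller or its threshold, and footprint lists carry the tool name dnase2tf. The authors deposited DHS and footprints with a score per region, of unknown formula. Read depth is unknown.

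Lists were joined with pandas 2.3.3 and numpy 2.4.6 under Python 3.11.15, and intervals came from scipy 1.17.1. Overlap meant at least 1 bp. Genes came from an R64 table, the same assembly as sacCer3, with the strand read from the systematic name. Comparison DHS were weighted to the members' widths in 10 bp classes, SEs assume binomial counting, and intervals of differences are normal 95% intervals. Other intervals are exact (Clopper-Pearson, Poisson for densities, order statistics for medians). The calculation was tested on simulated data. Named regions were the 6 strongest and 4 widest per strain, the 6 strongest pairs, the 5 per strain with most counterpart footprints, and up to 3 members of each of 12 gene lists. The last 3 pairs, and list members past the third (RPS1B and RPP2B in G170D), were named after their values were seen. Members, lists, rules and alternatives were chosen with earlier results of these data known. Alternatives changed thresholds, list lengths, width classes, windows and overlaps. Base composition was planned and left out, as no genome was used here.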

Additional observations from a re-analysis of the deposited data

Results flagged for a closer look

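The 3 measures below had opposite signs in the strains when footprint-free DHS were set against DHS with footprints of the same width, and in none was the difference between strains tested. The share wholly inside coding regions differed by 16.0 percentage points in WT and -2.29 in G170D. The share touching a promoter window differed by -10.8 points in WT and 4.59 in G170D. Among DHS with a counterpart, the share of stretches with a footprint of the other strain differed by 15.9 points in WT and -19.6 in G170D. Of these 6 values, the coding share in WT and the stretch share in G170D had intervals that leave out 0. The WT sign of the stretch share was not stable. It was negative with lists of the same number (-9.21), the stronger 75% of footprints (-4.35), widths of 150 to 300 bp (-18.0) and the upper 75% of DHS by score (-64.3). Under the others it was positive, at 0.216 between 50 and 150 bp. The G170D signs for coding regions and promoter windows also turned under some alternatives.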

How the results depend on the processing

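Of 106 values under alternatives, 84 stayed within the interval of the reported value, among them all that used 25 bp classes. The 84 include values that could not change. Counting a footprint by overlap picked the same regions, as no footprint reached into them by even 1 bp. Lists of the same number left the shorter G170D list whole. Its footprint-free share, score ratio, coding share and promoter share were therefore fixed under that alternative. With the stronger 75% of footprints alone the footprint-free share was 7.92% in WT and 10.3% in G170D. With all footprints it was 30.8% and 38.4% among DHS of at most 150 bp. Of the upper 75% of DHS by score it was 0.380% and 0.928%, which left 9 and 20 regions. There the differences from DHS of equal width became, in WT, 35.0 points for counterparts, 55.3 for coding regions, -38.0 for promoter windows and -64.3 for stretches with a footprint of the other strain, and in G170D 22.5 for coding regions and -12.4 for promoter windows. Score ratios there were 1.03 in WT, which reversed the direction, and 1.04 in G170D, and 40% (WT) and 70% (G170D) of counterparts held a footprint. With widths of 150 to 300 bp (16 WT and 21 G170D regions) the WT differences were -6.97 points for counterparts, 44.5 for coding regions and -18.0 for stretches, that for G170D promoter windows was -11.2, and the score ratios were 0.911 and 0.953. The cause of these shifts was not tested, and few regions remained. The measure on stretches, the equal-width comparison of counterparts that held footprints or met another DHS, the limit of 150 bp, the range of 50 to 150 bp and leaving out the chromosome IX end were chosen after seeing the data. Unknown read depth limits every count of footprints.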

Other observations

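Footprint-free DHS occurred on all 16 chromosomes in both strains. By chromosome their share of DHS ran in WT from 1.18% on III (1 of 85) to 8.33% on IX (9 of 108), and in G170D from 2.17% on V (3 of 138) to 10.8% on IX (10 of 93) and 10.1% on XVI (24 of 238). Chromosome XVI stood at 3.86% in WT (9 of 233). These counts are small and were not compared.

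Neighbouring DHS of the same strain lay within 300 bp of 36 of the 149 WT regions and 38 of the 185 G170D regions. At equal width the share differed from that of DHS with footprints by 5.89 percentage points in WT (-6.97 to 18.7) and by -1.60 in G170D (-11.8 to 8.60). The nearest footprint of the same strain lay at a median of 926 bp in WT (186 to 8827) and 1143 bp in G170D (211 to 13037). No footprint lay outside a DHS, so that these distances are set largely by the spacing of DHS.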
